A study of Mus musculus with 2 samples.

Results

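Mir331 is a mouse miRNA gene whose hairpin yields miR-331-3p and miR-331-5p, and the tags that match this hairpin were followed here in J1 mESCs, an established mouse embryonic stem cell line. A tag is a distinct sequence in a library together with its number of reads. Tags were taken that matched the Mir331 hairpin of the GENCODE M21 annotation perfectly over their whole length, which gave 16 tags of the 1695245 distinct tags in the 2 libraries, with 13 in each library. The cells were grown with 1000 U/mL LIF, without feeders, and treated for 24 h with 1 μM PD (PD0325901, a MEK inhibitor) or with DMSO as control. The RNA of 3 experiments was combined before sequencing, so that 1 small RNA library stands for each treatment and no difference between them has a replicate. miR-331 was chosen by the measured fold of its perfect 3p reads, the largest among the miRNAs that reached 10 RPM (reads per 1000000 clean reads) with PD or DMSO. The difference in these reads is therefore given as a description, without a test. All intervals are 95% intervals and cover the counting of reads only; how far cultures or libraries vary is not contained in them.

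In miRNA biogenesis, Drosha cuts the hairpin from a longer transcript and Dicer then removes its loop, which leaves a duplex of a 5p and a 3p strand. The strand kept by Argonaute recognizes its targets mainly by the seed, bases 2 to 8 from its 5′ end, so that a shifted 5′ end changes the targets while a changed 3′ end does not change the seed. The 3′ end can be trimmed or extended, and terminal nucleotidyl transferases add U or A that the gene does not encode. PD blocks the kinase MEK and so the activation of ERK1/2, the pathway that drives mESCs toward differentiation. In cancer cell lines, miR-331-3p is known as a regulator of the receptor ERBB2, which acts upstream of this pathway.

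The hairpin of 96 nt lies on the minus strand at chr10:93963768-93963863 of GRCm38, and its GENCODE and RefSeq sequences are identical. It lies within the gene Vezt, which encodes the adherens junction protein vezatin, on the same strand. In the transcript Vezt-204 it falls in the 3′ untranslated part of exon 12 (chr10:93961522-93970704), while in Vezt-208 it is intronic. No other annotated miRNA hairpin was found within 50 kb on either strand. In the structure of lowest energy (-43.6 kcal/mol), 17 bases of the 3p strand pair with the 5p strand, and the 3p strand ends 2 nt beyond the base that pairs with the 5′ end of the 5p strand. The mature sequences of RefSeq (GRCm38.p6) are given with the seed in capitals, since the reads are described by their position on these strands. The 3p strand spans chr10:93963783-93963803 and the 5p strand chr10:93963817-93963838.
miR-331-3p: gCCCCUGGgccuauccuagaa
miR-331-5p: cUAGGUAUggucccagggaucc
No other miRNA with reads in these libraries had the seed of miR-331-3p.

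The 5 perfect tags of the 3p strand differed mainly at the 3′ end. They are written as sequenced, with T for U, and with the seed in capitals to show that only the tag that starts at base 2 has another seed.
21 nt tag: gCCCCTGGgcctatcctagaa
22 nt tag: gCCCCTGGgcctatcctagaac
20 nt tag: gCCCCTGGgcctatcctaga
19 nt tag: gCCCCTGGgcctatcctag
tag from base 2: cCCCTGGGcctatcctagaa
The 21 nt tag is identical to the RefSeq miR-331-3p. It was read 114 times (6.04 RPM) in the DMSO library and 507 times (24.2 RPM) in the PD library, a fold of 4.01 (3.26 to 4.95). The 19 nt tag was read 7 and 8 times and the 20 nt tag 6 and 9 times in the DMSO and PD libraries, respectively. The tag from base 2 had 2 and 1 reads, and the 22 nt tag 1 and 0 reads. The 21 nt tag was the only perfect 3p tag whose counting interval lay above 1. That its interval did so follows from the choice of the miRNA, since this tag held most of the reads used. The other tags had few reads. The interval of the 20 nt tag, 0.43 to 4.61, includes both 1 and 4.01, and that of the 19 nt tag was 0.326 to 3.34. The 4 other perfect tags together had 16 reads (0.848 RPM) in the DMSO library and 18 reads (0.859 RPM) in the PD library, a fold of 1.01 (0.488 to 2.12). The sum of the 5 tags, on which the choice of this miRNA rested, was 130 reads (6.89 RPM) and 525 reads (25.1 RPM), a fold of 3.64 (3 to 4.44). None of the 5 tags was found in a transcript of a gene other than Mir331 and Vezt. Introns and intergenic sequence were not searched, as no genome sequence was used.

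**Figure D1:**
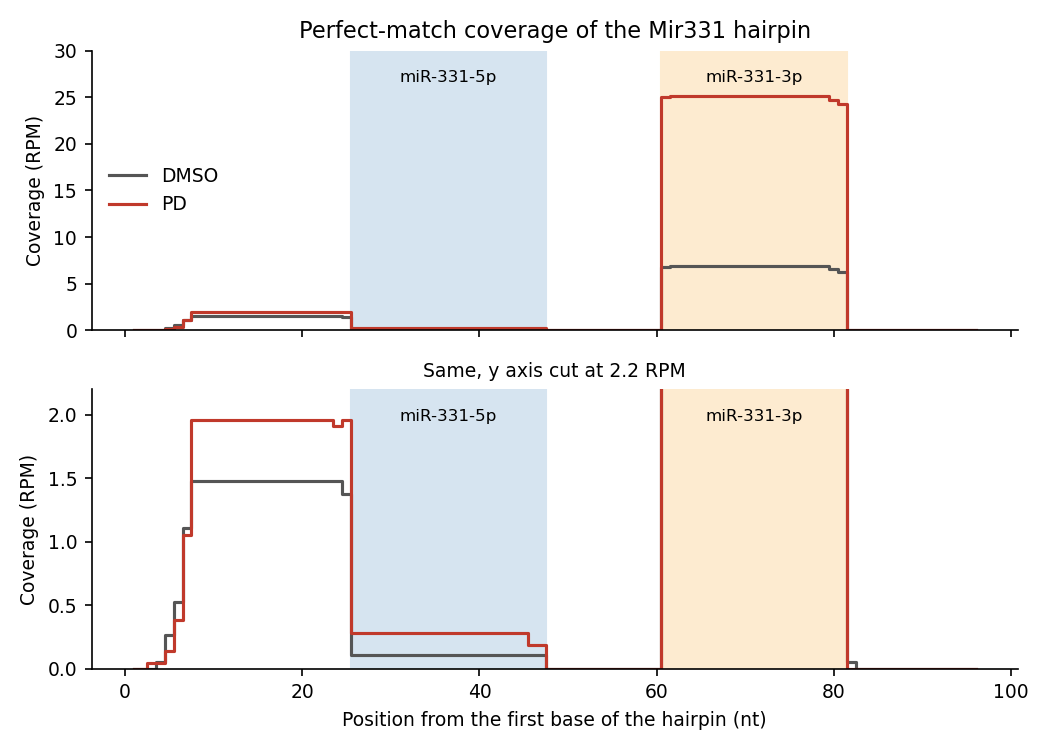
Coverage of the Mir331 hairpin by perfect tags, in RPM (y axis), by position from its first base in nt (x axis), for the DMSO (grey) and PD (red) libraries, with the annotated 5p and 3p strands shaded; the lower panel repeats the upper one with the y axis cut at 2.2 RPM. The PD line reaches 25.1 RPM on the 3p strand against 6.89 RPM for DMSO, reads before the 5p strand stop at its edge, and the 13 nt between the strands have no reads.

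The 3p strand made up 81.2% of the perfect hairpin reads in the DMSO library (130 of 160, 74.5 to 86.5) and 91.8% in the PD library (525 of 572, 89.2 to 93.8). The 3p reads singled out the miRNA, so the difference in this share is not independent of the choice. The whole hairpin had 8.48 RPM and 27.3 RPM, a fold of 3.22 (2.70 to 3.86). Reads of the 5p strand, the partner that is removed from the duplex, were rare. The RefSeq 5p sequence was read 2 times in the DMSO library and 4 times in the PD library. A further tag that starts 1 base earlier was read 0 and 2 times. The 5p strand thus had 0.106 RPM with DMSO and 0.286 RPM with PD, both near or below what 3 reads amount to (0.159 and 0.143 RPM), and its fold of 2.70 had an interval of 0.483 to 27.4. Whether the 5p strand rose along with the 3p strand was not detectable at this depth. The 5p reads were 1.52% of the reads of both strands with DMSO (exact interval 0.184 to 5.37) and 1.13% with PD (0.416 to 2.44), and these intervals overlap widely. No read came from the loop, and none matched the opposite strand of the hairpin; 0 reads allow up to 0.159 RPM in the DMSO and 0.143 RPM in the PD library.

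More reads than those of the 5p strand came from the stem just before it. These 9 offset tags, shown for the most frequent ones because their 3′ end meets the 5′ end of miR-331-5p, cover bases 3 to 25 of the hairpin, and the 5p strand starts at base 26.
offset tag of 18 nt: gttttgtttgggtttgtt
offset tag of 19 nt: ggttttgtttgggtttgtt
offset tag of 20 nt: tggttttgtttgggtttgtt
Fragments that border a miRNA in this way, known as miRNA-offset RNAs, begin or end at the Drosha cut. Of the 28 offset reads in the DMSO library 26 ended at base 25, as did 39 of the 41 in the PD library. The 5′ ends were spread from base 3 to base 8. The 18 nt tag was read 7 and 19 times, the 19 nt tag 11 and 14 times, and the 20 nt tag 4 and 4 times in the DMSO and PD libraries, respectively. The offset reads summed to 1.48 RPM and 1.96 RPM, and the interval of the fold of 1.32 (0.796 to 2.22) includes 1. The 18 nt tag, rich in T and G, also occurs in a transcript of 4930455D15Rik, so the source of its reads is uncertain. Without it the fold of the offset reads was 0.944 (0.495 to 1.80), a setting that was added once the values had been seen. Their share of the perfect hairpin reads was 17.5% with DMSO (12.4 to 24.1) and 7.17% with PD (5.33 to 9.58), a share whose total holds the 3p reads that singled out the miRNA.

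Reads that carried additional bases at the 3′ end had not entered the choice of the miRNA, since these bases do not match the hairpin. They were taken as tags with at least 18 bases of the 3p strand, from a start within 2 nt of its first base, followed by 1 to 3 other bases. Of 21 such tags, those with at least 5 reads in either library are shown, with the added bases in capitals.
U tail: gcccctgggcctatcctagaaT
longer U tail: gcccctgggcctatcctagaaTT
A tail: gcccctgggcctatcctagaaA
U after base 20: gcccctgggcctatcctagaT
C after base 20: gcccctgggcctatcctagaC
C and A after base 20: gcccctgggcctatcctagaCA
C and U after base 20: gcccctgggcctatcctagaCT
Tailed reads numbered 91 (4.82 RPM) in the DMSO library and 178 (8.50 RPM) in the PD library, a fold of 1.76 (1.36 to 2.29), and none of these tags matched a transcript of the annotation. The tailed reads thus had more RPM in the PD library as well. Their fold is not set against that of the 21 nt tag, which was in effect chosen for its size. Among 254 miRNAs with at least 20 tailed reads in both libraries, 9 (3.54%) had tailed reads higher by 1.5-fold or more with PD, and miR-331-3p had 2 others above it. The median log2 fold of tailed reads of the other 253 was -0.08, against 0.82 for miR-331-3p.

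The tails were counted by the base added and by the base they follow. Tails after base 21 had 77 reads (4.08 RPM) and 116 reads (5.54 RPM), a fold of 1.36 (1.01 to 1.83), and tails after base 20 had 14 reads (0.742 RPM) and 62 reads (2.96 RPM), a fold of 3.99 (2.21 to 7.72). All tails that begin with C followed base 20, so that the kind of tail and its position cannot be told apart for them. The definition of a tail contributes to this. A C after base 21 matches the hairpin, as in the 22 nt tag, and was not counted as a tail. In the same way, an A after base 19 or base 20 was not counted. Tails of U only, the kind added by terminal uridylyl transferases, had 52 reads (2.76 RPM) and 73 reads (3.49 RPM), a fold of 1.26 (0.874 to 1.84) that cannot be told from 1 at this depth. The tag with 1 added U was read 37 and 56 times, and the one with 2 added U 7 and 4 times. Tails of A only had 25 reads (1.32 RPM) and 53 reads (2.53 RPM), a fold of 1.91 (1.17 to 3.21). Tails that begin with C had the highest fold of the 3 kinds, with 8 reads (0.424 RPM) and 48 reads (2.29 RPM), a fold of 5.41 (2.53 to 13.2). Of these, the tag with C after base 20 was read 7 and 27 times, the tag with C and A 0 and 11 times and the tag with C and U 0 and 6 times. These tags keep bases 1 to 20 of miR-331-3p and carry C where the hairpin has A, so an added C and an exchanged last base cannot be told apart. Tails with C first made up 8.79% of the tailed reads with DMSO (8 of 91, 4.52 to 16.4) and 27% with PD (48 of 178, 21 to 33.9), and those with U only 57.1% (46.9 to 66.8) and 41% (34 to 48.4). The tag with U after base 20 was read 2 and 10 times, a fold of 4.5 (0.96 to 42.3).

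**Figure D2:**
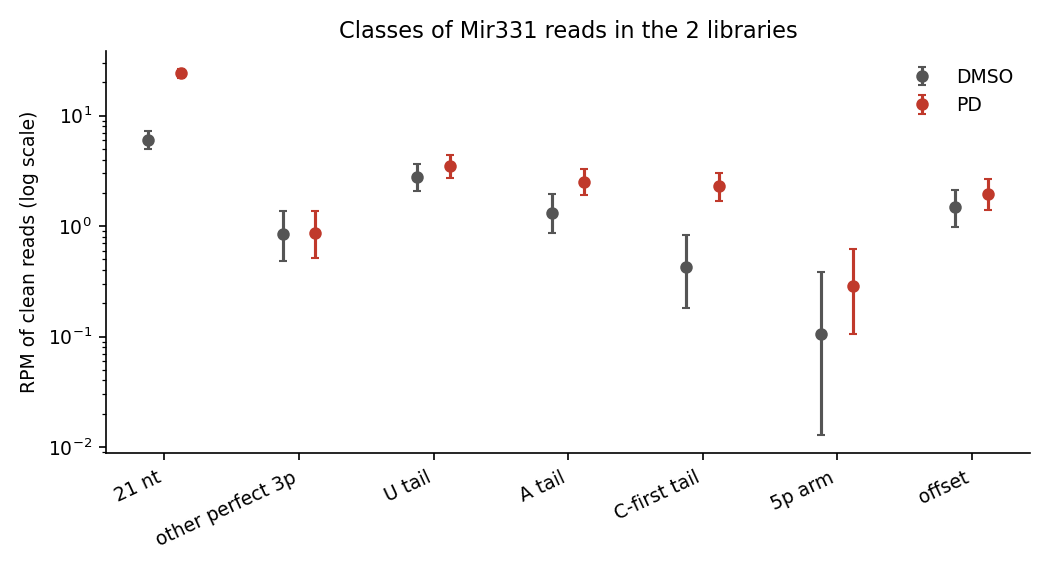
RPM (y axis, log scale) of 7 classes of Mir331 reads in the DMSO (grey) and PD (red) libraries, 1 library each; points are the measured values and bars exact Poisson 95% intervals, which cover counting only. The bars of the 21 nt tag and of tails that begin with C do not overlap between the libraries, while those of the other perfect 3p tags, U tails, A tails, 5p strand and offset tags do.

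**Figure D3:**
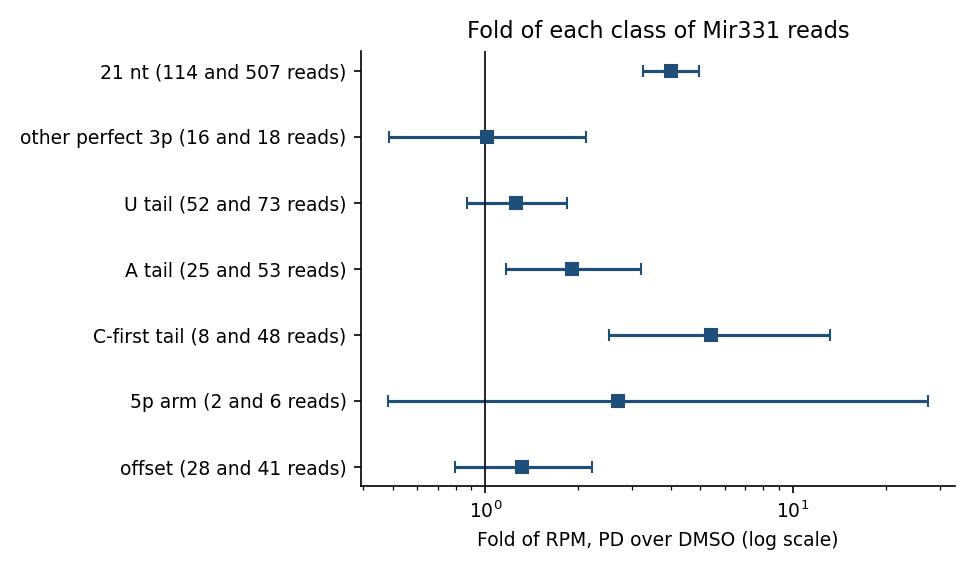
Fold of RPM, PD over DMSO (x axis, log scale), for the same 7 classes of Mir331 reads (y axis, with their reads in the DMSO and PD libraries); squares are the folds, bars their 95% counting intervals and the vertical line marks 1. The 21 nt tag (4.01), A tails (1.91) and tails that begin with C (5.41) have intervals above 1, and the intervals of the other 4 classes include 1.

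As a share of perfect and tailed 3p reads, tailed reads were 41.2% with DMSO (91 of 221, 34.9 to 47.8) and 25.3% with PD (178 of 703, 22.2 to 28.7). The other 302 miRNAs with at least 100 perfect reads in both libraries had median shares of 7.06% and 8.68%. With DMSO, 19 of these 302 had a higher tailed share than miR-331-3p, and 43 with PD. The difference of -15.9 percentage points for miR-331-3p was lower than that of each of the 302 others, whose median was 0.418 points. That of miR-378c was close to it, at -15.74 points (84.65% with DMSO and 68.92% with PD). For miR-378c, a single added U made up 1.003% with DMSO and 1.367% with PD, and a single added A 0.9027% and 1.459%. A single added C or G was at 0% in both libraries. Nearly all of its tailed share thus came from tails of more than 1 base, whose source was not tested. With at least 50 reads in both libraries, 1 of 359 others had a lower difference than miR-331-3p. The perfect reads in the tailed share of miR-331-3p are those that singled it out, so its difference is not independent of the choice. A single added C was also more frequent on miR-331-3p than on most miRNAs, at 3.17% with DMSO and 3.84% with PD, where the medians of the others were 0.0169% and 0.025%, and 5 and 4 of the 302 were higher.

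**Figure D4:**
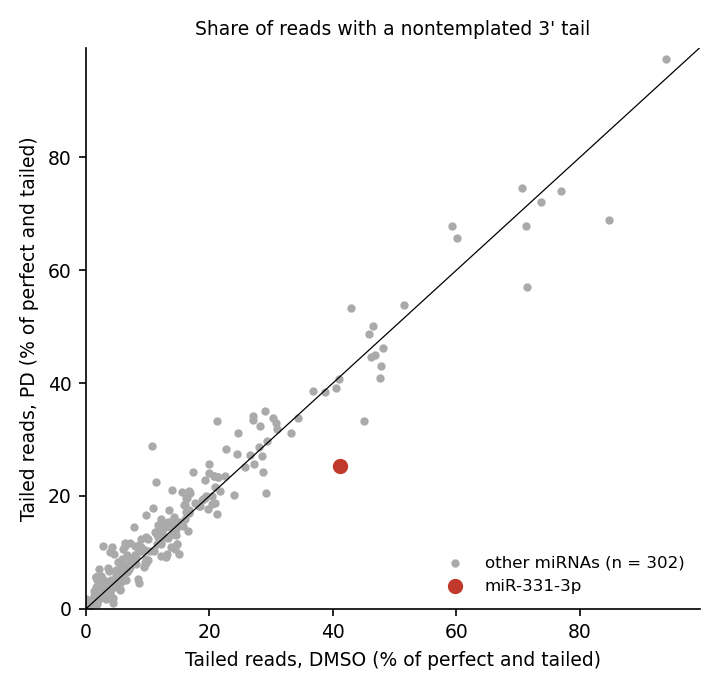
Reads with 1 to 3 added 3′ bases as a percentage of perfect and tailed reads, in the DMSO (x axis) and the PD library (y axis), for miR-331-3p (red) and 302 other miRNAs with at least 100 perfect reads in both libraries (grey); the line marks equal shares. miR-331-3p, at 41.2% and 25.3%, lies below the line by more than any other point, though miR-378c, at 84.65% and 68.92%, lies nearly as far below it. Nearly all tailed reads of miR-378c carried more than 1 added base, and their source was not tested.

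The 5′ end of miR-331-3p was nearly uniform. Base 1 was the start of 98.5% of the perfect 3p reads with DMSO (128 of 130, 94.6 to 99.6) and 99.8% with PD (524 of 525, 98.9 to 100), so that nearly all reads had the same seed. The medians of the other 302 miRNAs at their leading start were 97.9% and 97.7%. At the 3′ end, 89.2% of the reads ended at base 21 with DMSO (116 of 130, 82.7 to 93.5) and 96.8% with PD (508 of 525, 94.9 to 98). The medians of the others at their leading end were lower, 63.1% and 68.5%, and 33 and 5 of the 302 had a higher share than miR-331-3p. The share at base 21 was higher with PD by 7.53 percentage points, and 60 of the other miRNAs had a larger gain at their leading end. Reads of 19 or 20 nt from base 1 were 10% of the perfect reads with DMSO (5.94 to 16.4) and 3.24% with PD (2.03 to 5.12). Most of the perfect reads in these shares are the 21 nt tag that singled out miR-331-3p. Neither difference at the 3′ end is therefore independent of the choice.

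Reads of at least 20 nt with 1 mismatch to the 3p side, outside their last 3 bases, were few, with 0 reads in the DMSO library and 5 reads in the PD library over 4 tags. Of the 5 reads, 2 had the mismatch at an additional base before base 1 of miR-331-3p. They were 0.943% of the perfect and mismatched reads with PD (0.404 to 2.19), and 0 of 130 with DMSO, whose interval reaches 2.87%. The forward primer that the study lists for RT-qPCR of miR-331-3p is shown because it bears on which of these reads such an assay takes in.
primer: gcccctgggcctat
Its 14 bases are bases 1 to 14 of the mature miRNA. It was contained in 4 of the 5 perfect 3p tags (128 and 524 reads) and in 18 of the 21 tailed tags, and it does not reach the 3′ end where the tags differ. With tailed and mismatched reads included, the fold of miR-331-3p was 2.89 (2.48 to 3.37) in place of 3.64.

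Fragments of the Vezt mRNA were nearly absent from both libraries. Outside the miRNA hairpin, tags found in Vezt and in no other gene had 4 reads with DMSO and 6 reads with PD over 8 tags. No such tag had more reads over both libraries together than one with 1 read in each. These amount to 0.212 and 0.286 RPM, a fold of 1.35 (0.320 to 6.51). Within 1000 nt of the hairpin on Vezt-204 there was 1 such tag, with 1 read in each library, and it ran across the edge of the hairpin. The small RNA libraries do not measure the level of the Vezt mRNA itself.

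Of the 501 miRNAs that reached 1 RPM with PD or DMSO, 29 (5.79%) had a fold of 1.5 or more and 71 (14.2%) were lower by as much. With the reads that match miRNA hairpins as denominator these numbers were 49 and 30, and with reads of miRNA length, 20 to 24 nt, they were 61 and 23. The libraries differed in their lengths: 63% of the DMSO reads and 52% of the PD reads had 20 to 24 nt, and 7.11% and 17% had 28 to 32 nt. What these lengths contributed was not tested. The median log2 fold of the 501 miRNAs was -0.17, and that of miR-331-3p, 1.86, lay 2.03 above it. Another denominator shifts all log2 folds equally and leaves this distance as it is. In level, miR-331-3p was at place 292 of 501 with DMSO and at place 168 with PD. At 10 RPM or more with PD or DMSO, 7 of 262 miRNAs (2.67%) had a fold of 1.5 or more and 27 (10.3%) were lower by as much, with miR-331-3p at the top. By this filter, miR-331-3p was also the lowest of the 262 in the DMSO library. Among the 501, miR-871-3p had the only higher fold, 4.14 (1.54 to 14), from 5 reads with DMSO (0.265 RPM) and 23 with PD, far below 10 RPM.

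**Figure D5:**
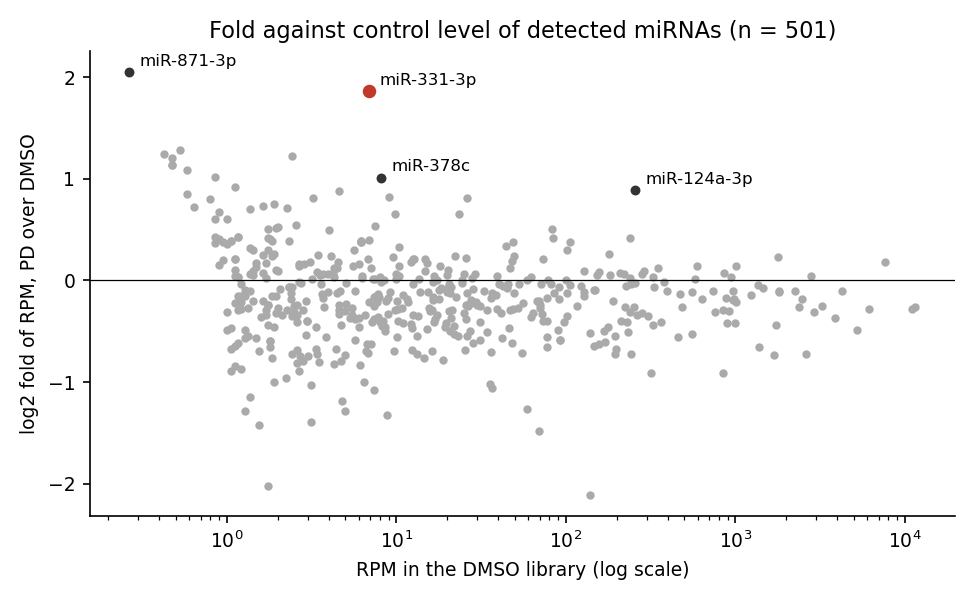
log2 fold of RPM, PD over DMSO (y axis), against RPM in the DMSO library (x axis, log scale) for the 501 miRNAs that reached 1 RPM (grey), with miR-331-3p in red and 3 further miRNAs named in black; each point is 1 library against 1 library. miR-331-3p (1.86) stands above the other miRNAs of its level, which follows from how it was chosen. The one higher point, miR-871-3p, rests on 5 and 23 reads.

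The miRNAs nearest to miR-331-3p in fold were taken by the difference of log2 folds over the 2 libraries, among the 262 miRNAs with 10 RPM or more. miRNAs of lower level, such as miR-871-3p, can be nearer. The closest of the 262 was miR-378c, with 153 and 341 reads, a fold of 2.01 (1.65 to 2.45) and a log2 fold 0.86 lower. It was followed by miR-124a-3p, a miRNA of neurons, with 4815 and 9885 reads (1.85), and miR-302a-5p, of a cluster known from pluripotent cells, with 171 and 334 reads (1.76). miR-467a-5p, whose reads match 11 hairpins, had 495 and 961 reads (1.75), and miR-365-2-5p had 441 and 769 reads (1.57). That these folds lie below that of miR-331-3p follows from how it was chosen. The miRNAs closest in control level were spread around no change. miR-377-3p had 130 reads with DMSO, as many as miR-331-3p, and 191 with PD, a fold of 1.32 (1.05 to 1.67). The folds of miR-493-5p (130 and 125 reads), miR-301a-3p (129 and 166), miR-539-5p (128 and 87) and miR-30c-1-3p (127 and 92) were 0.866, 1.16, 0.612 and 0.653.

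miR-331 shares the position in an exon with other miRNAs. Of the 41 other detected miRNAs whose hairpin overlaps an exon of a protein-coding gene on the same strand, 2 had a fold of 1.5 or more, miR-21a-3p (9 and 22 reads) and miR-8094 (19 and 32 reads), and 6 were lower by as much, beside 29 (5.79%) and 71 (14.2%) of all 501. Their median log2 fold was -0.12, beside -0.17 for all 501. The miRNAs of Mir21a, Mir221 and Mir222, whose transcription is known to respond to ERK and AP-1, are given as the part of the pathway that small RNA can show. miR-221-3p had 788 and 588 reads (fold 0.672), miR-222-3p 1116 and 516 reads (fold 0.417) and miR-21a-5p 10513 and 10781 reads (fold 0.924) with DMSO and PD. The highest fold of these 6 miRNAs was 2.2 for miR-21a-3p, with an interval of 0.975 to 5.43. The miRNAs of the miR-290 cluster, which mark mouse ESCs, were counted without those of Mir291b, although these also had reads. Of the 14 counted miRNAs with reads, 12 reached 1 RPM. The counted miRNAs summed to 33056 RPM with DMSO and 28349 RPM with PD.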

How the data were processed

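The authors gel-purified small RNA from the pooled total RNA, ligated adapters, sequenced the libraries on an Illumina HiSeq instrument, filtered them for quality, adapters, contaminants and a length of at least 18 nt, and merged identical reads. The labels name a TruSeq RNA kit instead. The deposited values are raw counts of clean reads per tag, 18870345 in the DMSO and 20944808 in the PD library, without alignment or normalization. The labels name mm9, but the files hold no coordinates. Positions are those of GRCm38, and introns were not searched.

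Tags were matched with Python 3.11.15 to the 1174 named hairpins of GENCODE M21. Mature miRNAs were those of RefSeq (1606 of 1679 names placed), and in 221 arms without one the most frequent tag. A tag counted for a miRNA with an overlap of at least 16 nt, and for each miRNA it matched. Counts were divided by the clean reads (RPM). Fold intervals are Clopper-Pearson intervals (SciPy 1.17.1), and intervals of shares are Wilson intervals unless called exact. A count of 0 was set to 3 reads for ranks, medians of log2 folds and numbers of miRNAs past 1.5-fold. With 1 library per treatment no test was made. edgeR 4.0.16 and DESeq2 1.42.0 gave scaling factors only, and ViennaRNA 2.7.2 the structure. PCR reads without molecular identifiers are not independent molecules. On simulated data, 235 of 235 miRNA counts and 234 of 235 tailed counts were recovered, and of 117 miRNAs changed by 2-fold 116 passed 1.5-fold, with 0 of 118 unchanged ones. The simulated counts held Poisson counting error only, for miRNAs with many reads. They check the counting of tags and cannot show how often unchanged miRNAs pass 1.5-fold between real libraries.

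The miRNA, the lists and the settings were chosen with earlier results of these data known. miRNAs named were both strands of Mir331, the 5 nearest in fold at 10 RPM or more, the 5 nearest in control level, those sharing the seed or within 50 kb, and the fixed lists. miR-871-3p and miR-8094 were named after their values were seen.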

Additional observations from a re-analysis of the deposited data

Results flagged for a closer look

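4 values from outside the perfect tags of the 2 strands were flagged, and each measured value was higher with PD than with DMSO. They are not separate, as the tails that begin with C are part of the tailed reads. Offset reads before the 5p strand had 1.96 RPM with PD against 1.48 RPM with DMSO, and the interval of their fold (0.796 to 2.22) includes 1. Tailed miR-331-3p reads had 8.50 RPM against 4.82 RPM. Tails that begin with C had 2.29 RPM against 0.424 RPM. Reads of the 3p side with 1 mismatch had 0.239 RPM against 0 reads, and the interval of their fold, from 0.826 upward, includes 1. Each value comes from 1 library, and no group was large enough to look for outlying samples.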

How the results depend on the processing

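Of 52 values under alternative settings, 38 stayed within the counting interval of the reported value or, for counts and ranks, within 1.5 times of it, 14 did not, and none with an interval that excluded 1 changed direction. The offset reads, whose interval included 1, had a fold of 1.32 with and 0.944 without the tag that another gene also holds. The Vezt tags outside the hairpin, whose interval also included 1, had a fold of 1.35 when found in no other gene. With tags that other genes also hold, their fold was 0.601 (0.213 to 1.6). The fold of miR-331-3p ran from 2.89 with tailed and mismatched reads to 4.41 with the clean reads of 20 to 24 nt as denominator. With that denominator the fold of the hairpin was 3.90. Among tags of 20 nt or more, the 21 nt tag made up 92.7% of the perfect 3p reads with DMSO and 98.1% with PD. With the offset tags counted to the 5p strand, its share was 18.8% with DMSO and 8.22% with PD. Counting 1 nt tails only, the tailed share with PD was 21.5%. The number of miRNAs higher by 1.5-fold was 49 with hairpin reads and 61 with reads of 20 to 24 nt as denominator. At 10 RPM or more it was 7. Without a filter it was 221, a number that also holds miRNAs that were lower with PD. As a count of 0 was set to 3 reads, a miRNA with 1 read with DMSO and 0 with PD entered as higher. miR-331-3p ranked 9 without a filter, where the 8 higher folds rest on 1 to 5 reads with DMSO, and 1 with at least 10 reads in both libraries. It also ranked 1 with 10 RPM in either library, a setting added to these alternatives after seeing the data. There its place follows from the choice of the miRNA, and it reached 10 RPM only with PD. No paired analysis was possible because each treatment has 1 library. Leaving out a replicate was not possible for the same reason. With 130 control reads, and 2 of the 5p strand, depth limits the values of the rarer tags most.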
